A study of Mus musculus with 167 samples.

Results

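Transcripts of 50 respiratory chain genes were followed through mouse liver in an allelic series of Htt, the gene whose lengthened CAG repeat causes Huntington's disease. The genes were taken from a given list of subunits of the oxidative phosphorylation complexes, 50 of the 39179 genes in the deposited table, and all 50 passed the filter on low counts in every comparison. Of these, 13 are encoded by the mitochondrial genome (7 in complex I, 1 in complex III, 3 in complex IV and 2 in complex V). The other 37 are nuclear genes, with 20 members in complex I, 4 in complex II, 5 in complex III, 5 in complex IV and 3 in complex V. The list was drawn by subunit and not by measured values, though earlier results of these data were known when it was chosen. The contrast of interest was that between the mitochondrially encoded and the nuclear transcripts.

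Oxidative phosphorylation makes ATP in the inner mitochondrial membrane. Complexes I, III and IV pass electrons from NADH to oxygen and pump protons, complex II feeds in electrons from succinate without pumping, and complex V (ATP synthase) uses the proton gradient. The mitochondrial genome encodes core membrane subunits of every complex except complex II, transcribed inside the organelle as long precursors that are processed and polyadenylated there. The remaining subunits are transcribed in the nucleus and imported as proteins, so each of these complexes is built from the products of both genomes. Hepatocytes are rich in mitochondria and use this system to supply gluconeogenesis and urea synthesis.

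Polyadenylated RNA was sequenced from whole liver of C57BL/6 mice at 2, 6 and 10 months of age. Knock-in animals were heterozygous for an Htt allele named for its CAG repeat (Q20, Q80, Q92, Q111, Q140 or Q175), so that each knock-in mouse also kept a normal allele, and Q20 is the short-repeat control. Wild-type mice, housed with Q20 mice, formed the seventh genotype. There were 56, 56 and 55 libraries at the 3 ages, in 21 groups of 8 (Q80 had 7 at 10 months), mostly of 4 females and 4 males. Total counts per library ran from 32025244 to 57151736, with medians of 34696186, 46777191 and 38228631 at 2, 6 and 10 months. The label liver held, since 8 hepatocyte genes together stood at 68245 to 146763 CPM (counts scaled to a common library size) in these libraries. An exception concerned sex: the library labelled male M5 of Q80 at 2 months had 0 CPM summed over 4 Y-linked genes, against 127.5 CPM or more in the other males of that age. Leaving it out kept the number of members called between the sexes at 2 months at 32. In whole tissue, fewer cells of a type and less RNA per cell cannot be told apart.

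The mitochondrially encoded transcripts stood far above the nuclear ones. On the FPKM scale, which divides by transcript length, the median over all libraries was highest for mt-Co1 (20661 FPKM), the catalytic subunit of complex IV, among the 50 members. It was followed by the ATP synthase membrane subunit mt-Atp6 (13350 FPKM, range 5556 to 16935), mt-Co2 (12689 FPKM) and mt-Co3 (12217 FPKM). Next came cytochrome b of complex III, mt-Cytb (7974 FPKM), and the small ATP synthase subunit mt-Atp8 (7466 FPKM, range 1393 to 9682). The complex I subunits mt-Nd2 (6522 FPKM), mt-Nd4 (5889 FPKM) and mt-Nd1 (5378 FPKM) lay in the middle. The others of complex I were low within the mitochondrial set, with mt-Nd3 at 2587, mt-Nd5 at 2212, mt-Nd6 at 2008 and mt-Nd4l at 1733 FPKM. Neighbours in this order overlapped in their ranges over libraries, so the order is one of medians.

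Nuclear members ran from 32.6 FPKM for the complex I subunit Ndufs4 to 589.9 FPKM for Atp5b, the catalytic beta subunit of ATP synthase. Atp5a1, its alpha partner, had 377 FPKM, the complex IV subunits Cox4i1 and Cox6c had 339 and 292 FPKM, and Sdha, the flavoprotein of succinate dehydrogenase, 174 FPKM. The median of the 37 nuclear medians was 117 FPKM and that of the 13 mitochondrial medians 6522 FPKM, a ratio of 55.8. By complex, the median nuclear member had 77.2 FPKM in complex I, 147 in complex II, 128 in complex III, 143 in complex IV and 377 in complex V. Mitochondrial members also varied more between libraries: their coefficient of variation over all libraries was 12.1 to 30.5% (median 14.4%), against 7.13 to 19.5% (median 9.91%) for nuclear members. The highest value among the 50 was that of mt-Atp8.

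**Figure D1:**
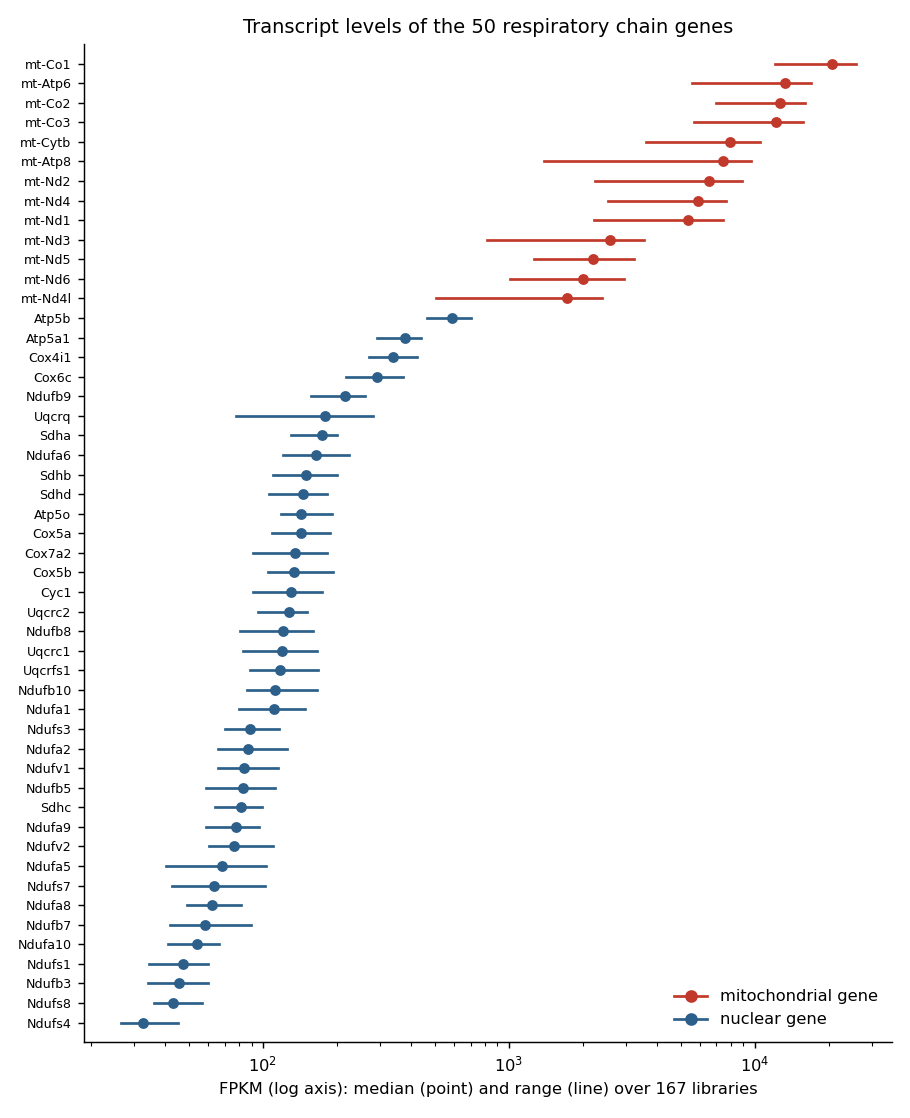
Transcript levels of the 50 genes in FPKM on a log axis, with the median (point) and the range (line) over all libraries. All 13 mitochondrially encoded medians (1733 to 20661 FPKM) lie above all 37 nuclear medians (32.6 to 589.9 FPKM).

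In counts, the 13 mitochondrial members took 4.73 to 11.6% of a library (median 9.77%) and the 37 nuclear members 0.490 to 0.732% (median 0.622%). In the knock-in lines the median mitochondrial shares at 2, 6 and 10 months were 10.1, 8.28 and 9.93%. Wild-type medians were 10.7, 10.6 and 9.55%. At 6 months the wild-type libraries ran from 9.77 to 11.6%, above the median of every knock-in line. The wild-type libraries of 6 months carry other index codes in their names, so genotype and library series cannot be told apart there. At that age Q20 had a median of 7.86%, Q80 8.22%, Q92 9.03%, Q111 7.76%, Q140 8.40% and Q175 8.33%. The lowest library of all was the Q111 female F4 of 6 months, at 4.73%.

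A second measure set the gene classes against each other within each library: the mean log2 CPM of the 13 mitochondrial members minus that of the 37 nuclear members. It was lower in females than in males in 21 of 21 groups of genotype and age, taking group means. The difference had a median of −0.18 over the groups and ran from −0.04 in Q92 at 6 months to −0.55 in Q111 at 6 months. Each mitochondrial member was lower in females in 18 to 21 of the 21 groups, and 7 of them in all 21. For nuclear members this number ran from 3 to 20 groups, with a median of 14. The Q111 group at 6 months holds the female F4.

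**Figure D2:**
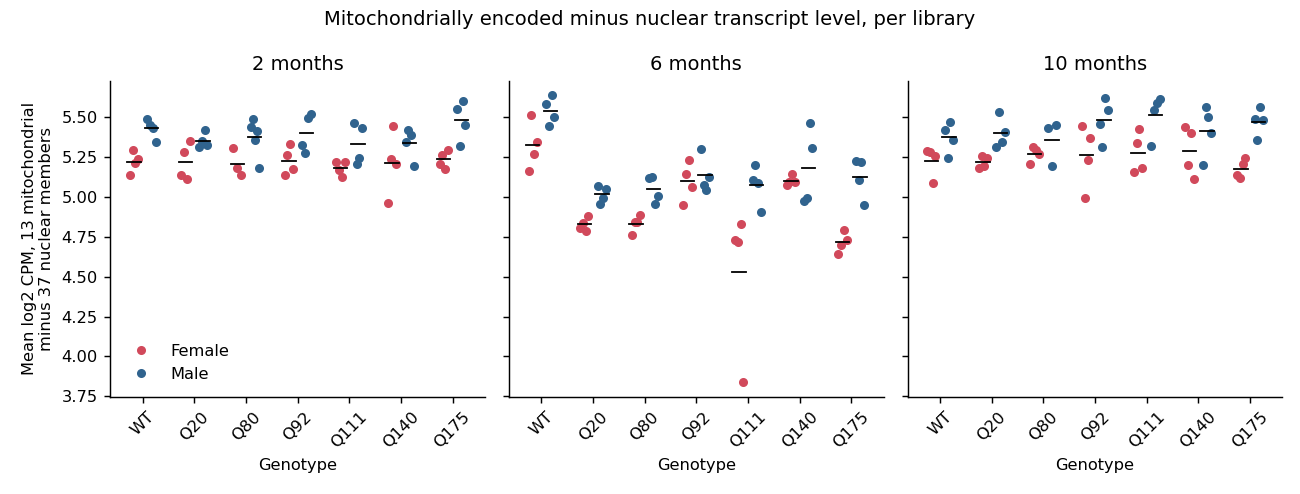
Mean log2 CPM of the 13 mitochondrially encoded genes minus that of the 37 nuclear genes, 1 point per library, by genotype and sex at 2, 6 and 10 months, with bars at the mean. Group means of females lie below those of males in 21 of 21 groups, and the 6-month wild-type means lie above those of the knock-in lines in either sex. At 6 months genotype and library series cannot be told apart.

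Members of the same genome varied together between libraries. After removal of the mean of each genotype and sex, the median pairwise Pearson r among mitochondrial members was 0.75, 0.79 and 0.65 at 2, 6 and 10 months (56, 56 and 55 libraries). Among nuclear members it was 0.69, 0.64 and 0.71. Pairs of a mitochondrial and a nuclear member had medians of 0.40, 0.19 and 0.34. These values are descriptions, since all genes of a library share its depth and scaling. With scaling factors taken without the mitochondrial genome, the mixed pairs had medians of 0.41, 0.19 and 0.34.

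On the CPM scale nearly every mitochondrially encoded transcript was lower in female than in male livers, with fewer called on the FPKM scale, as given below. Sex was compared at each age with genotype in the model, by the quasi-likelihood test of edgeR. Its p-values were adjusted by Benjamini and Hochberg's method across every gene in the fit, and fold changes are log2 with their standard error (SE). At 2 months 13 of 13 mitochondrial members were lower in females, where 57.6% of all genes passed, 27.7% lower and 29.8% higher in females. At 6 months the count was again 13 (60.9% of all genes passed, 29.5% lower and 31.4% higher), and at 10 months it was 12 (57.2% passed, 27.2% lower and 30% higher). The median over the mitochondrial members was −0.22, −0.30 and −0.16, against 0.01, 0.01 and 0.02 over all genes tested. The 6-month count of 13 was 4 in the wild type, Q92 and Q140 alone, a setting chosen after the data were seen. The median there was −0.13 in place of −0.30, with 6129 genes called in all. At 6 months the count of mt-Atp8 relative to mt-Atp6 also split the libraries of Q20, Q80, Q92, Q111 and Q175. Females and the male M4 lay below the males M1 to M3, with the smallest gap in Q92, so that split largely runs with sex. Its part in the sex differences was not tested. The 6-month fold change ran with log2 exon length at r = 0.49 across mitochondrial members, 0.42 across nuclear members and 0.02 over all genes. At 10 months mt-Nd1, singled out after its value was seen, was the member that did not pass (−0.09 ± 0.04, adjusted p = 0.0804).

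At each age the largest of these differences was in a complex I transcript, though at 6 months mt-Atp8 of complex V came within the SE of it. At 2 months mt-Nd5, a proton-pumping subunit, ran from 2788 to 4725 CPM in 27 females (median 3596 CPM) and from 3571 to 5994 CPM in 29 males (median 4703 CPM). The female median lay close to the lowest male value, and the sexes overlapped. The log2 fold change was −0.37 ± 0.05 (adjusted p = 3.42e-09 from edgeR). For mt-Nd4l, a small membrane subunit, the fold changes were −0.29 ± 0.04, −0.46 ± 0.06 and −0.38 ± 0.04 at 2, 6 and 10 months (adjusted p = 1.26e-08, 8.33e-09 and 2.45e-11 from edgeR). Its 10-month levels were 369 to 575 CPM in females (median 462 CPM) and 513 to 764 CPM in males (median 622 CPM), so that only the upper female values reached the male range. mt-Nd2 fell by 0.27, 0.39 and 0.28 on the log2 scale in females.

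The other complexes moved the same way. mt-Co3, a core subunit of cytochrome c oxidase, differed by −0.22 ± 0.04 at 2 months, −0.26 ± 0.05 at 6 months and −0.13 ± 0.04 at 10 months, where limma on FPKM gave 0.02. At 10 months it had 7645 to 10709 CPM in females (median 9317 CPM) and 8748 to 12132 CPM in males (median 10179 CPM). The small ATP synthase subunit mt-Atp8 differed by −0.20 ± 0.03, −0.45 ± 0.09 and −0.16 ± 0.04 at the 3 ages. In females of 6 months mt-Atp8 spread from 250 to 1969 CPM (median 654 CPM) and in males from 408 to 2196 CPM (median 943 CPM). The ranges of the sexes overlapped for all 50 members at every age. The mitochondrial ribosomal RNAs mt-Rnr1 and mt-Rnr2 did not pass at any age, with values between −0.17 and 0.06.

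Nuclear members gave a mixed picture. On the CPM scale 0 were higher and 19 lower in females at 2 months, 2 higher and 16 lower at 6 months, and 8 higher and 8 lower at 10 months. Their medians were −0.06, −0.05 and 0.00. At 10 months the shares of nuclear members higher and lower were both below those of all genes, given above. Cox7a2, a small structural subunit of complex IV, led the nuclear list at each age with −0.25 ± 0.03, −0.28 ± 0.03 and −0.21 ± 0.04 (adjusted p = 4.98e-11, 1.63e-10 and 9.29e-06 from edgeR). At 2 months it had 88.3 to 110.7 CPM in females (median 99.3 CPM) and 104.1 to 141.7 CPM in males (median 115.6 CPM), and the female range reached just into the male one. The complex I accessory subunits Ndufa8 (−0.20 ± 0.03) and Ndufb3 (−0.21 ± 0.04) followed at 2 months. Ndufa1, an X-linked accessory subunit, was lower by −0.28 ± 0.03 at 6 months.

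By complex, the nuclear subunits of complex IV stood out by count at 2 and 6 months, with 5 of 5 lower in females each time. In complex I 8 of 20 were lower at 2 months, and at 10 months 4 were lower and 5 higher, both below the shares of all genes. Among those higher at 10 months were Ndufb10 (0.18 ± 0.04, adjusted p = 6.61e-05 from edgeR) and Ndufb7 (0.16 ± 0.04), both accessory subunits. Complex II, which has no mitochondrially encoded subunit, was split within itself at 10 months on the CPM scale. With limma on FPKM no nuclear member was lower in females at that age, and Sdha stood at 0.03. Its flavoprotein Sdha was lower in females (−0.13 ± 0.03, adjusted p = 0.000171), with 348 to 506 CPM (median 466 CPM) against 438 to 561 CPM in males (median 496 CPM). The membrane anchor Sdhc was higher (0.11 ± 0.03, adjusted p = 0.00129 from edgeR), with 122 to 159 CPM in females (median 139 CPM) and 114 to 154 CPM in males (median 131 CPM). The iron-sulfur subunit Sdhb and the other anchor Sdhd, named here after their values were seen, were also higher (0.11 ± 0.04 and 0.08 ± 0.03).

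Across the 3 ages, 12 of 13 mitochondrial and 8 of 37 nuclear members were lower in females each time. The 8 were Ndufa1, Ndufa8, Ndufa10, Ndufb3, Sdha, Cyc1, Cox5a and Cox7a2. The shares of all genes lower at all 3 ages, or passing at no age, are not given here. The counts over the 3 ages are therefore not set against genes in general. Another 10 nuclear members passed at no age, among them Atp5b, whose fold changes were 0.00 at each age with 95% intervals of −0.05 to 0.05 at 2 months and −0.05 to 0.06 at 10 months. The change of the sex difference with age was tested in 1 model over all libraries. Of the mitochondrial members 0 passed between 6 and 2 months (0.961% of all genes passed, 4 members at an unadjusted p under 0.05) or between 10 and 2 months (3.38%, 1 member). Among nuclear members Ndufb10 passed between 10 and 2 months (0.16 ± 0.05, adjusted p = 0.0492 from edgeR). DESeq2 was not run on these differences.

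The split of the nuclear members and the number of mitochondrial members called both depend on how libraries are scaled. With limma on log2(FPKM + 0.1) the median of all genes lay at 0.09, 0.12 and 0.15 in females against males at 2, 6 and 10 months. On that scale 12, 20 and 28 nuclear members were higher in females and 3, 3 and 0 lower, the reverse of the direction on the CPM scale, while 12, 9 and 4 mitochondrial members were lower in place of 13, 13 and 12. Relative to the median of all genes, mitochondrial members stood at −0.23, −0.31 and −0.18 with edgeR and −0.22, −0.29 and −0.16 with FPKM. Nuclear members stood at −0.07, −0.06 and −0.02 with edgeR and −0.06, −0.04 and 0.00 with FPKM. The gap between the class medians was −0.15, −0.25 and −0.17 with edgeR, and −0.15, −0.26 and −0.17 with FPKM. In the wild type alone, 4 females against 4 males, 2, 0 and 1 mitochondrial members passed, with medians of −0.16, −0.21 and −0.23. The same fits called 1485, 2370 and 1867 genes in all, against 8714, 9529 and 8970 with every genotype.

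**Figure D3:**
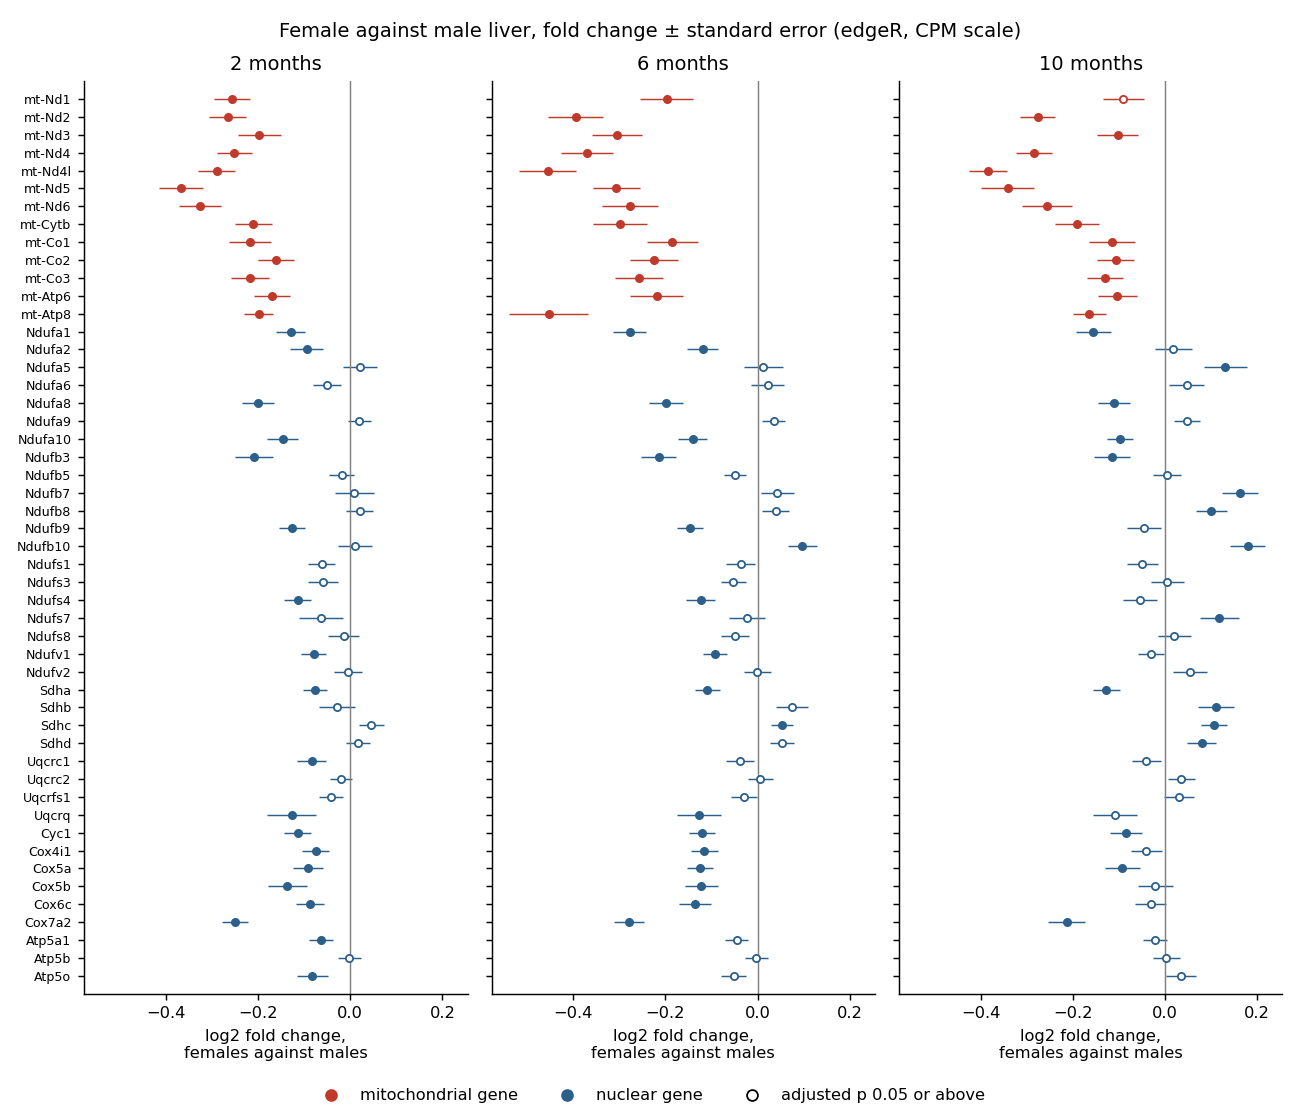
Log2 fold change of females against males for the 50 genes at 2, 6 and 10 months on the CPM scale, with bars of 1 SE and open points at an adjusted p of 0.05 or above. Mitochondrially encoded genes lie left of 0 at every age (medians −0.22, −0.30 and −0.16), and nuclear genes lie on both sides, a split that shifts toward females with FPKM scaling.

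Other genes of the mitochondrial system were read from lists. Of 39 tested subunits outside the 50, 21 were lower and 1 higher in females at 2 months, 26 and 1 at 6 months, and 7 and 6 at 10 months, with Ndufa4 at −0.19, −0.27 and −0.17. Of 77 mitochondrial ribosomal proteins 46, 49 and 34 were lower and 5, 5 and 14 higher, with Mrpl16 at −0.30, −0.33 and −0.33. Of 34 genes for the upkeep and expression of mitochondrial DNA 19, 15 and 13 were lower and 7, 4 and 5 higher. The RNA exonuclease Rexo2 (−0.51, −0.69 and −0.66) and Taco1, an activator of mt-Co1 translation (−0.38, −0.42 and −0.42), led these at each age. Of 44 assembly factors 23, 21 and 14 were lower and 7, 7 and 9 higher, led by the complex IV factors Cox19, Cox18 and Sco2 (−0.54, −0.45 and −1.21 at 2 months).

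The tricarboxylic acid cycle and the upstream regulators did not follow this pattern by count. For all these lists, the counts are to be read beside the shares of all genes higher and lower in females, given above. Of 16 genes of the cycle 5, 5 and 7 were higher and 6, 7 and 7 lower in females, and the NADP-dependent isocitrate dehydrogenase Idh2 was higher by 0.49, 0.61 and 0.67. Of 12 regulators of mitochondrial genes 4, 5 and 4 were higher and 0, 1 and 0 lower. They included the nuclear receptors Esrra (0.25, 0.32 and 0.32) and Esrrg (0.35, 1.04 and 1.05) and the coactivator Ppargc1a (0.38, 0.57 and 0.27). Markers of other cell types moved with sex as well: 8, 8 and 7 of 8 Kupffer cell and macrophage genes were higher in females. Their summed level was 236 to 540 CPM in females and 138 to 468 CPM in males at 2 months, 196 to 896 and 88.5 to 398 CPM at 6 months, and 199 to 580 and 155 to 411 CPM at 10 months. Of 8 hepatocyte genes 6, 5 and 6 were lower and 1 higher at each age. In 3 libraries of 10 months, all Q175 (F3, F4 and M4), genes of muscle or blood stood high, and without them 12 mitochondrial members were lower and 6 nuclear members higher and 9 lower. The part of the marker genes in the other differences was not tested.

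Q20 mice, which carry a repeat of normal length, differed from the wild type in these genes at 6 months alone among the 3 ages. At 6 months genotype and library series cannot be told apart, so the difference cannot be assigned to genotype. At 2 months 0 members passed (0% of all genes), with 0 at an unadjusted p under 0.05, and DESeq2 also called 0. At 10 months 0 passed (0.0127% of all genes), 1 at an unadjusted p under 0.05, and 0 with DESeq2. At 6 months 12 of 13 mitochondrial and 21 of 37 nuclear members were lower in Q20 and 0 higher, where 32.2% of all genes passed, 14.3% lower and 17.9% higher. The medians were −0.57 for mitochondrial and −0.16 for nuclear members, against 0.02 over all genes tested. The 8 libraries of each group did not overlap for 8 mitochondrial and 8 nuclear members, all lower in Q20, against 3.70% of all genes tested (2.26% lower and 1.44% higher).

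Among the 13 mitochondrial members the shortest moved most. mt-Atp8 had 459 to 817 CPM in Q20 (median 552 CPM) and 1544 to 2196 CPM in the wild type (median 1805 CPM), a fold change of −1.59 ± 0.16 (adjusted p = 2.07e-10 from edgeR). Every Q20 library lay below every wild-type library. At 2 months the same gene had medians of 1571 CPM in Q20 and 1679 CPM in the wild type, and at 10 months 1493 and 1551 CPM. mt-Nd3, a short membrane subunit of complex I, ran from 388 to 622 CPM in Q20 (median 476 CPM) and from 876 to 1450 CPM in the wild type (median 1081 CPM), without overlap (−1.18 ± 0.10, adjusted p = 1.59e-12 from edgeR). mt-Nd4l had 216 to 403 CPM (median 323 CPM) against 455 to 791 CPM (median 658 CPM), again without overlap (−0.94 ± 0.12, adjusted p = 2.08e-08 from edgeR).

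Longer transcripts among the 13 moved less, which the mitochondrial ribosomal RNAs (mt-Rnr1 −1.25, mt-Rnr2 −1.17) did not follow. mt-Co3 (−0.68 ± 0.10), mt-Nd1 (−0.69 ± 0.11) and mt-Atp6 (−0.66 ± 0.11) stood between the extremes, and mt-Co2 (−0.57 ± 0.10) and mt-Nd2 (−0.57 ± 0.11) followed. For mt-Co3 the levels were 5449 to 8502 CPM in Q20 (median 7110 CPM) and 9472 to 14690 CPM in the wild type (median 11099 CPM), without overlap. The longest member of the genome, mt-Nd5, was the one that did not pass (−0.20 ± 0.10, adjusted p = 0.105), a gene singled out after its value was seen. Its levels were 3373 to 4560 CPM in Q20 (median 3922 CPM) and 3537 to 5357 CPM in the wild type (median 4714 CPM), and the groups overlapped.

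Among nuclear subunits, all 5 of complex IV were lower in Q20 at 6 months, with 12 of 20 in complex I, 2 of 4 in complex II, 2 of 5 in complex III and 0 of 3 in complex V. Cox7a2 had 66.0 to 94.0 CPM in Q20 (median 75.1 CPM) and 97.2 to 144.3 CPM in the wild type (median 113.4 CPM), a log2 fold change of −0.54 ± 0.06 (adjusted p = 2.06e-09 from edgeR). The groups did not overlap, nor did they for Cox6c, which had 99.9 to 128.6 CPM in Q20 (median 115.5 CPM) and 149.9 to 191.4 CPM in the wild type (median 163.7 CPM; −0.53 ± 0.07, adjusted p = 1.9e-08 from edgeR). Ndufa5, an accessory subunit of complex I, had 24.1 to 30.8 CPM (median 27.3 CPM) against 38.3 to 49.8 CPM (median 39.6 CPM), without overlap (−0.58 ± 0.08, adjusted p = 1.41e-07 from edgeR). Ndufa1 (−0.51 ± 0.07), Ndufb3 (−0.42 ± 0.07), Ndufs4 (−0.41 ± 0.06), Ndufb8 (−0.37 ± 0.05) and Ndufb5 (−0.31 ± 0.04) completed the 8 of smallest p. Atp5b, with 1042 to 1194 CPM in Q20 (median 1115 CPM) and 947 to 1180 CPM in the wild type (median 1096 CPM), did not pass (0.08 ± 0.05).

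Within the members, shorter genes had the lower fold changes at 6 months. Across the 13 mitochondrial members at 6 months, the correlation of log2 exon length with the log2 fold change was r = 0.87 (Spearman's rho 0.76), and across the 37 nuclear members r = 0.36. Over 15438 genes with a length it was r = 0.23, with a median fold change of −0.40 for the 196 genes under 500 bases and 0.05 for those over 2000 bases. These are descriptions across genes of the same libraries, and genes are not independent replicates. At 2 months the values of r were −0.19 for the mitochondrial members, 0.24 for the nuclear members and 0.13 for all 14950 genes with a length (Spearman's rho 0.24, against 0.25 at 6 months). At 10 months they were 0.01, −0.16 and 0.02. The 8 wild-type libraries of this age carry D index codes in their names and the knock-in libraries LB codes or none, so that genotype and library series cannot be told apart at 6 months.

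**Figure D4:**
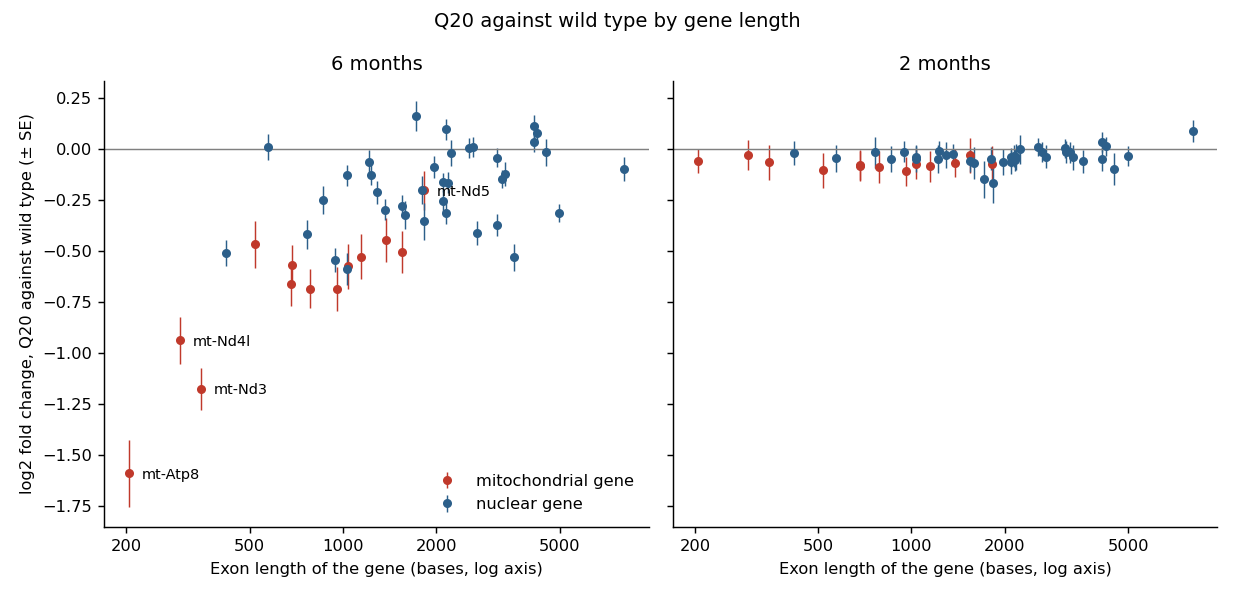
Log2 fold change of Q20 against the wild type for the 50 genes (bars of 1 SE) by exon length in bases on a log axis, at 6 and 2 months. At 6 months mt-Atp8, mt-Nd3 and mt-Nd4l, all under 500 bases, lie at −1.59, −1.18 and −0.94, and at 2 months none of the 50 passed. Genotype and library series cannot be told apart at 6 months.

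A test of the difference between ages, added after the data were seen, gave 12 mitochondrial and 12 nuclear members for which Q20 against the wild type was lower at 6 than at 2 months (15.7% of all genes passed, 8.24% lower). Library series differs between Q20 and the wild type at 6 months alone, so this test cannot tell an age effect from a series effect. Between 10 and 2 months 0 members passed (0% of all genes), with 1 at an unadjusted p under 0.05. On the FPKM scale 5 nuclear members were higher and 14 lower at 6 months, with the median of all genes at 0.10. The gap between the class medians was −0.41 on both scales. Of other genes, 33 of 39 further subunits were lower and 0 higher (Cox7c −0.70, Atp5l −0.56), as were 42 of 77 mitochondrial ribosomal proteins with 1 higher. Both mitochondrial ribosomal RNAs were lower. Of 12 regulators 2 were higher, Esrra (0.32) and Ppargc1b (0.78), and 0 lower.

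Markers of other cell types differed in this comparison too. In Q20 6 of 8 Kupffer cell and macrophage genes were higher (Csf1r 1.11, Adgre1 1.25), with a summed level of 277 to 896 CPM against 168 to 567 CPM in the wild type. Of 7 sinusoidal endothelial genes 6 were higher (Lyve1 1.73), with 183 to 420 CPM against 100.4 to 219 CPM. The females F1, F3 and F4 of Q20 held the 3 highest Kupffer sums of that group, 761, 779 and 896 CPM, and its males 277 to 362 CPM. With those 3 females left out, 12 mitochondrial members were lower, and 16 nuclear members were lower and 2 higher. The part of these markers in the other values was not tested.

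The mt-Atp8 transcript shares its end with mt-Atp6, and both are carried on 1 messenger RNA. It is printed whole because the ratio of the 2 genes moved between groups, from GENCODE M21 (GRCm38, chrM:7766-7969, + strand), with the 43 bases in capitals that also belong to mt-Atp6 (positions 7927 to 7969).
mt-Atp8: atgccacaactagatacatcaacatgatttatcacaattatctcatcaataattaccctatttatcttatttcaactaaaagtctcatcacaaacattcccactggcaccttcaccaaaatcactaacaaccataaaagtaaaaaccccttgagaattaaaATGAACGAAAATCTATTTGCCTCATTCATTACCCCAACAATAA
The gene has 204 bases in all. Reads from the shared bases cannot be assigned to either gene alone, as is true of the 7 bases that mt-Nd4l and mt-Nd4 share, and reads of any mitochondrial gene may also match nuclear copies. mt-Nd5 and mt-Nd6 overlap by 14 bases on opposite strands. These counts are uncertain to that extent.

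The count of mt-Atp8 as a percentage of that of mt-Atp6 had a median of 16.5 to 17.2% in all 14 groups of 2 and 10 months. In the wild type at 6 months it was 15.6 to 17.8% (median 17.1%), and in the knock-in lines of 6 months 5.57 to 13.2% (median 10.9%). No knock-in library of 6 months reached the wild-type range. The group medians of that age were 8.49% in Q20, 9.74% in Q80, 12.3% in Q92, 7.53% in Q111, 12.3% in Q140 and 7.67% in Q175. mt-Nd4l as a percentage of mt-Nd4 had medians of 6.48% in the knock-in lines at 2 months, 4.96% at 6 months and 6.85% at 10 months, and of 6.68% in the wild type at 6 months.

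Libraries of 6 months also differed within groups in this ratio. Among Q20 mice the males M1 to M3 had 10.1 to 11.9% and the females and the male M4 6.85 to 8.64%. In Q111 these values were 10.1 to 11.6% and 5.57 to 7.55%, in Q175 10.4 to 11.4% and 5.99 to 8.10%, and in Q80 11.6 to 11.99% and 8.69 to 10.0%. In Q92 and Q140 all 8 libraries lay between 10.9 and 13.2%. In Q92 the males M1 to M3 had 12.6 to 13.2% and the others 11.5 to 12.4%, again without overlap. In Q140 and the wild type these sets of libraries overlapped.

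Age was compared within the knock-in lines and within the wild type. Between 6 and 2 months 12 mitochondrial members were lower in the knock-in lines, and 4 nuclear members were higher and 23 lower, where 53.1% of all genes passed, 25.4% lower and 27.7% higher. Scaled to the summed counts of the 37 nuclear members, which centres those members by construction, 11 mitochondrial members were lower. mt-Atp8 had 250 to 1229 CPM at 6 months (median 793 CPM, 48 libraries) and 1265 to 2115 CPM at 2 months (median 1623 CPM), and the ages did not overlap (−1.11 ± 0.06, adjusted p = 9.72e-38 from edgeR). mt-Nd3 (−0.85 ± 0.04), mt-Nd4l (−0.66 ± 0.04) and mt-Co3 (−0.43 ± 0.03) followed, and Cox7a2 (−0.43 ± 0.02) and Ndufa1 (−0.35 ± 0.03) led the nuclear list. In the wild type 0 members passed between 6 and 2 months (1.54% of all genes), 6 at an unadjusted p under 0.05 and 1 with DESeq2. The libraries of 6 months in the knock-in lines are those with the low mt-Atp8 to mt-Atp6 ratio, and age and library series cannot be told apart there.

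Between 10 and 2 months the mitochondrial members split and the nuclear members fell slightly. Of the mitochondrial members 2 were higher (mt-Nd6 0.14 ± 0.04 and mt-Nd1 0.12 ± 0.04) and 3 lower (mt-Cytb −0.11 ± 0.04, mt-Nd4 −0.10 ± 0.04 and mt-Co2 −0.10 ± 0.03), where 22.8% of all genes passed, 13.4% higher and 9.37% lower. With limma on FPKM 2 mitochondrial members were higher and 0 lower. Of the nuclear members 21 were lower and 0 higher, with a median of −0.08. All 3 nuclear members of complex V were among them, with Atp5b at 864 to 1192 CPM at 10 months (median 1064 CPM) and 980 to 1301 CPM at 2 months (median 1141 CPM; −0.12 ± 0.02, adjusted p = 6.9e-07 from edgeR). The ages overlapped over most of that range. With limma on FPKM 1 nuclear member was higher and 17 lower. Scaled to the summed counts of the 37 nuclear members, 4 mitochondrial members were higher and 0 lower, with the median of all genes at 0.10 in place of 0.00. In the wild type 0 members passed between 10 and 2 months (1.62% of all genes), 9 at an unadjusted p under 0.05 and 1 with DESeq2. Those of smallest p there were mt-Cytb (−0.23 ± 0.10), mt-Nd4 (−0.20 ± 0.09), Ndufs7 (−0.26 ± 0.08) and Uqcrc1 (−0.19 ± 0.06). With 8 wild-type libraries per age, far fewer than in the knock-in lines, a count of 0 does not show that the wild type lacks these changes.

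Repeat length was the question of the allelic series, and no member followed it. The slope of log2 expression on the CAG repeat, per 100 repeats over the 6 knock-in lines with sex in the model, passed for 0 of 50 members at 2 months (0.272% of all genes), at 6 months (6.27%) and at 10 months (0.595%). DESeq2 also called 0 members at each age. At an unadjusted p under 0.05 there were 1 mitochondrial and 1 nuclear member at 2 months, 0 and 6 at 6 months, and 0 and 0 at 10 months. Median slopes were 0.03, 0.09 and 0.02 for the mitochondrial and 0.00, 0.05 and 0.00 for the nuclear members. The 95% intervals of single members bound what could be missed, reaching from −0.14 to 0.23 for mitochondrial and from −0.12 to 0.20 for nuclear members at 2 months, and from −0.15 to 0.17 and −0.13 to 0.17 at 10 months. At 6 months the widest was that of mt-Atp8 (0.11, interval −0.18 to 0.41).

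The smallest p-values among these slopes belonged to mt-Nd6 at 2 months (0.13 ± 0.05, adjusted p = 0.221), Ndufb3 at 2 months (0.10 ± 0.05, adjusted p = 0.286) and Ndufa8 at 6 months (0.12 ± 0.04, adjusted p = 0.0995), from edgeR. Median levels of Ndufa8 at 6 months were 46.0, 49.7, 54.4, 51.2, 49.6 and 55.5 CPM from Q20 to Q175, with 56.8 CPM in the wild type. The Q20 group was the lowest of these, and the order among the longer repeats was not that of their length. For the mitochondrial mt-Nd1 the 6-month medians were 3778, 4317, 4809, 4282, 4496 and 4288 CPM in the same order. Differences of the slope between 6 and 2 months and between 10 and 2 months passed for 0 members (0.229 and 0.972% of all genes), with 1 and 0 at an unadjusted p under 0.05.

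Q175 against Q20, the ends of the series, gave 0 members at 2 months (0.310% of all genes passed, 1 member at an unadjusted p under 0.05) and at 10 months (1.26%, 0.924% higher, 1 member at an unadjusted p under 0.05), and DESeq2 called 0 at both ages. At 6 months 7 nuclear members were higher in Q175 and 0 lower, and 0 of 13 mitochondrial members passed, where 10.9% of all genes passed, 4.41% higher and 6.45% lower. Ndufa8 had 44.1 to 72.9 CPM in Q175 (median 55.5 CPM) and 41.0 to 56.2 CPM in Q20 (median 46.0 CPM), a log2 fold change of 0.24 ± 0.07 (adjusted p = 0.0177 from edgeR). Sdhd (0.18 ± 0.05), the cytochrome c1 gene Cyc1 (0.18 ± 0.05), Cox5a (0.19 ± 0.05), the Rieske protein Uqcrfs1 (0.17 ± 0.05), Ndufs7 (0.22 ± 0.07) and Ndufs4 (0.17 ± 0.06) were the others. The groups overlapped for all 50 members. With females F1, F3 and F4 of Q20 left out the count was 0, while the nuclear median went from 0.13 to 0.11, with 34 of 37 above 0 in place of 35. Leaving out 1 library at a time it ran from 1 (without Q20 F1 or Q175 M4) to 15 (without Q175 F4), with 14 without Q175 F2, 12 without Q20 M4, 2 without Q175 M3, and 4 without Q20 F3 or F4.

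The other lines were set against the same Q20 libraries at 6 months. In Q92 9 mitochondrial and 12 nuclear members were higher and 0 lower, where 18% of all genes passed, 7.07% higher and 10.9% lower. Shorter genes had the higher fold changes in Q92. The correlation with log2 exon length was r = −0.69 across mitochondrial members, −0.26 across nuclear members and −0.16 over 15438 genes. Over those genes the median was 0.19 under 500 bases and −0.03 over 2000 bases. mt-Atp8 had 946 to 1182 CPM in Q92 (median 1063 CPM) and 459 to 817 CPM in Q20 (median 552 CPM), without overlap (0.81 ± 0.16, adjusted p = 0.000908 from edgeR). Cox5a, a nuclear subunit of complex IV, had 104.3 to 122.4 CPM in Q92 (median 111.5 CPM) and 76.2 to 99.3 CPM in Q20 (median 85.4 CPM), without overlap (0.35 ± 0.05, adjusted p = 5.69e-05 from edgeR). Cox5b, its partner in the matrix part of that complex, had 76.1 to 97.3 CPM (median 82.8 CPM) against 59.2 to 73.7 CPM (median 64.8 CPM), without overlap (0.35 ± 0.07, adjusted p = 0.000608 from edgeR).

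In Q140 3 members were higher, mt-Atp8 (0.68 ± 0.16), mt-Nd4l (0.38 ± 0.11) and Cox5b (0.21 ± 0.07), where 5.98% of all genes passed, 2.69% higher and 3.29% lower. In Q80 Ndufa1 (0.20 ± 0.07) and Ndufb5 (0.13 ± 0.04) were higher (9.30% of all genes passed, 3.73% higher and 5.58% lower). In Q111 0 members passed (1.24% of all genes, 0.543% higher and 0.697% lower), 4 at an unadjusted p under 0.05 and 0 with DESeq2. All these values share the Q20 libraries, so the lines are not independent of each other. Kupffer cell genes moved beside them: 7 of 8 were lower than in Q20 in Q175, Q92 and Q140, 1 in Q80 and 0 in Q111. Their summed level was 88.5 to 421.5 CPM in Q175, 196 to 442 CPM in Q92, 213 to 344 CPM in Q140, 209 to 413 CPM in Q80 and 158 to 510.0 CPM in Q111, against 277 to 896 CPM in Q20. Of 7 endothelial genes 4 were lower in Q175, 5 in Q92, 1 in Q80 and 0 in Q111 and Q140. When F1, F3 and F4 of Q20 were left out, 3 members passed in Q92 (mt-Atp8 0.78, Cox5a 0.37 and Cox5b 0.33) and 0 in Q80, Q111 and Q140. For mitochondrial members the median went from 0.33 to 0.29 in Q92 and 0.21 to 0.16 in Q140, with 13 of 13 above 0 throughout. Nuclear medians went from 0.13 to 0.09 in Q92 (36 above 0 in place of 37). In Q140 they went from 0.00 to −0.04 (11 in place of 19). In the males M1 to M3 alone, chosen after the ratio of mt-Atp8 to mt-Atp6 was seen, 0 members passed in any line. Both settings hold fewer libraries, and their shares of all genes are not given here. At 2 months Q80, Q92, Q111 and Q140 gave 0 members against Q20 (0.0991, 0, 0 and 0% of all genes), with 13, 0, 2 and 3 at an unadjusted p under 0.05. At 10 months the count was again 0 (0.0127, 4.0, 1.11 and 0.00637% of all genes; 2.02% higher in Q92), with 0, 0, 9 and 0 at an unadjusted p under 0.05, and DESeq2 called 0 at both ages.

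**Figure D5:**
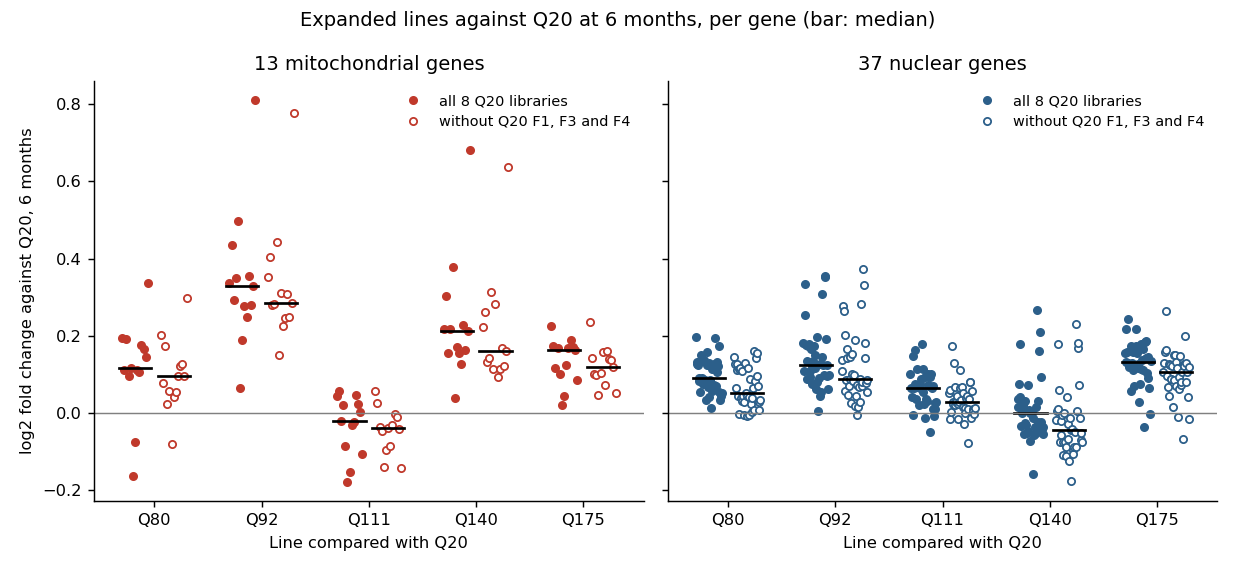
Log2 fold change of each longer-repeat line against Q20 at 6 months, 1 point per gene with bars at the median, for mitochondrially encoded and nuclear genes apart; filled points use all 8 Q20 libraries and open points leave out F1, F3 and F4. With all of them Q92 has the highest mitochondrial median (0.33) and Q111 lies near 0 in that class (−0.02); the Q20 libraries are shared by all 5 comparisons.

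The nuclear members were also looked at by promoter sequence, because they varied together between libraries. RefSeq promoters (GRCm38.p6, 250 bases before to 50 after the start) were matched for 27 of the 37. The core of the binding motif of NRF1, a factor known for driving nuclear respiratory genes, was searched on both strands as GCATGCG and found in 4 of 27 (14.8%), against 4.01% of 27025 promoters. The 4 members with the core were Ndufa6, Ndufa8, Sdhb and Uqcrc1. Of these, 3 are shown with the motif in capitals, 80 bases each, upstream of the RefSeq start.
Ndufa6 (chr15:82354331-82354410, − strand): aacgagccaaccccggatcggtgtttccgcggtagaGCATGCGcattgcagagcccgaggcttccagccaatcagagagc
Ndufa8 (chr2:36049339-36049418, − strand): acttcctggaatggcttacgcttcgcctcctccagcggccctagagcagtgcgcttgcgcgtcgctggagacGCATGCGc
Sdhb (chr4:140961181-140961260, + strand): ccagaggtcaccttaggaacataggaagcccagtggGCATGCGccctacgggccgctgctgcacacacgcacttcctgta
The motif begins 83, 8 and 54 bases before the RefSeq start in this order. In GENCODE M21 the genes start at 36049406 for Ndufa8 and 140961203 for Sdhb, so their motifs lie inside the gene there. The ETS motif CCGGAAGT was in 1 of 27 (Ndufs3), against 4.31% of all promoters. The ESRRA motif TCAAGGTCA was in 1 (Sdhd), against 0.47%, and the YY1 motif in 3 (Ndufa9, Ndufs4 and Ndufs7), against 0.995%. Among the 37 subunits outside the 50 these motifs were in 4, 1 and 2. A match describes the letters of the window only. The genes of the 3 printed promoters did not share a pattern by sex: Ndufa8 was lower in females at each age and stood at −0.20 ± 0.03 at 2 months. Sdhb was higher in females at 10 months, and Ndufa6 passed between the sexes at no age.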

How the data were processed

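Polyadenylated liver RNA of 167 mice was compared in 21 groups of genotype and age. Base calling used CASAVA 1.8.2, per the submitters' processing notes, and aligner, quantifier and genome build were not given in the sources used here. Per gene, the authors deposited expected counts and FPKM per gene for 39179 gene IDs, of which 37607 matched GENCODE M21 (GRCm38), the source of symbols, positions and exon lengths. Because 14.1% of the expected counts were not whole, they were rounded, where whole counts had been planned for. In R 4.3.3, edgeR 4.0.16 was run with filterByExpr, TMM scaling and the quasi-likelihood test (glmQLFTest), p-values were adjusted by Benjamini and Hochberg's method, and 0.05 was the threshold. Each age was fitted with all genotypes and sex. The CAG slope was fitted over the 6 knock-in lines, taking the length from the line's name. CPM values use TMM library sizes, and the SE is the fold change divided by the square root of F. Precision is set by depth (32025244 to 57151736 counts per library) and by the spread between mice, and the SE covers both.

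Alternatives were DESeq2 1.42.0, RLE scaling, scaling without the mitochondrial genome, no filter, limma 3.58.1 on log2(FPKM + 0.1), only the groups compared, a replicate block, each sex alone and libraries left out. The model was tested on simulated data. Members and lists were chosen with earlier results of these data known. Of mitochondrial and nuclear members separately, up to 8 that passed are named in order of p, or 2 where none passed, and of each other list up to 4. Members named beyond this for their place in a group or for missing the threshold were chosen after their values were seen. Each library is a separate sample per the labels.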

Additional observations from a re-analysis of the deposited data

Results flagged for a closer look

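Of 84 checks for a library far from its group (4 quantities in 21 groups), 8 stood out. Some would do so by chance, at a rate not estimated here. The checks are not independent, since the same library can be flagged in more than 1 quantity. In the share of counts of the 13 mitochondrial members, the male M3 of Q80 at 6 months (6.66%), the female F4 of Q111 at 6 months (4.73%) and the male M2 of Q80 at 10 months (8.10%) lay far below the others of their groups. The Q111 female F4 also had the lowest mitochondrial minus nuclear mean log2 CPM of its group, 3.84. In the share of the 37 nuclear members, the male M3 of Q80 at 6 months was far below its group (0.490%) and the female F1 of Q92 at 6 months far above (0.702%). The mitochondrial ribosomal RNAs stood far above the group in the female F2 of Q80 at 6 months (0.151% of counts) and in the female F3 of Q92 at 10 months (0.212%).

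Effects that differed between ages by a test of the difference were those of Q20 against the wild type between 6 and 2 months, for 12 mitochondrial and 12 nuclear members, and that of sex between 10 and 2 months for 1 nuclear member, Ndufb10. The first of these cannot be assigned to genotype, since genotype and library series cannot be told apart at 6 months.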

How the results depend on the processing

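Counts of members past the threshold moved by over 1.5 times as follows. For females against males, the wild type alone (added after the data were seen) gave 2, 0 and 3 members at 2, 6 and 10 months, against 32, 31 and 28, and the wild type, Q92 and Q140 alone gave 13 at 6 months. For Q175 against Q20 at 6 months (7 members), limma on FPKM gave 2, females alone 0, males alone 13, and leaving out 1 library at a time 1 to 15, while the CAG slopes and Q175 against Q20 at 2 and 10 months stayed at 0 to 0. DESeq2 gave 9 members for Q175, 25 for Q92 and 4 for Q140 at 6 months, each within 1.5 times. With F1, F3 and F4 of Q20 left out, Q175, Q80 and Q140 gave 0 members each and Q92 gave 3. In males M1 to M3 alone (added) these 4 lines gave 0 each, and Q20 against the wild type gave 17. Scaling to the summed counts of the 37 nuclear members (added) centres those members by construction and gave 1 for Q175, 0 for Q80, 7 for Q92 and 7 for Q140. The CAG slope at 6 months gave 1 member in males alone. For the wild type, DESeq2 gave 1 member for 6 against 2 and 1 for 10 against 2 months. With the replicate block, Q80 at 6 months gave 1 member in place of 2 and Q140 5 in place of 3, and it moved no other count by over 1.5 times. Same-numbered libraries correlated above 0.1 in 1, 2 and 4 of 8 pairs at 2, 6 and 10 months and best with their own number in 2, 1 and 6, so the numbers were not taken to pair the samples; the 6 at 10 months (highest r 0.27) are a hint from the data, not the design. With limma on FPKM, sex differences that were negative on the CPM scale turned positive: Cyc1 0.013 and Cox5a 0.0091 at 6 months, and mt-Co3 0.020, Sdha 0.026, Ndufa10 0.051 and Ndufa8 0.036 at 10 months. The cause of these changes was not tested, apart from the smaller number of libraries where libraries were left out.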
